A study of Mus musculus with 6 samples.

Results

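Igfbp1, with 9 other genes of the liver's response to fasting, insulin and glucocorticoids, was followed across 6 liver arrays. The genes were Igfbp1, Ddit4, Fkbp5, Pck1, Tat, Tsc22d3, Sgk1, Irs2, Ppargc1a and Nr3c1. Every probe set whose platform annotation gave 1 of these symbols was taken, which gave 20 probe sets of 10 genes, out of 22626 probe sets without controls and 12393 genes with a probe set of their own. The set was chosen by measured values of these same arrays: the hexane and control signals of Igfbp1 and Ddit4, known from earlier results, led to it. Differences between groups are therefore given for its members as descriptions, and no support is drawn from them. No p-value of a single member is printed. Which members passed a threshold, and how many, is given as a description too. Of the 20 probe sets, 17 from 9 genes were bright enough to enter the model fitted across all probe sets. The 3 that did not were 1 probe set each of Irs2, Ppargc1a and Nr3c1, and Irs2 had no other.

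The study fed Swiss-Webster mice, an outbred stock, on diets with fractions of Boswellia serrata, the tree that yields Indian frankincense, and measured liver total RNA on Affymetrix expression arrays. There were 2 arrays from mice on control diet, 2 from mice whose feed held 1% of fraction 1 (hexane) over 21 days, and 2 from mice given fraction 2 (methanol) at the same 1% and 21 days. These groups are called control, hexane and methanol. The labels give neither the sex, age and feeding state of the mice nor the hour of collection, and they do not say whether an array held 1 animal or a pool. Whether replicates were separate animals is thus unknown, and the spread between arrays may be technical. In whole tissue, fewer cells of a type and less RNA per cell cannot be told apart.

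Values are the deposited signal intensities in array units, and log2 differences are of signal plus 16. Median signals were 139.3 to 167.2 array units. The scan record put control replicate 1 and methanol replicate a in scan batch 2 and the other 4 arrays in batch 1, so a hexane value within a batch rests on control replicate 2 or methanol replicate b alone. Those 2 batch 2 arrays shared chip lot 2, while control replicate 2 and hexane replicate a shared lot 1 and the b arrays of both fractions shared lot 3. RNA quality was read from actin control probe sets, whose 3' signal over 5' signal was 3.87 on control replicate 2 and 2.13 to 2.64 on the others. The median standard error of a log2 difference was 0.25, and the number of arrays limits the precision.

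Liver keeps blood glucose up between meals by making glucose from amino acids, lactate and glycerol, and both low insulin and glucocorticoids raise transcription of genes that serve this. Insulin acts through insulin receptor substrates and the kinase AKT, which keeps FOXO transcription factors out of the nucleus, while glucocorticoids bind the receptor encoded by Nr3c1. Igfbp1 is among the best known genes of liver that FOXO factors switch on when insulin is low and that glucocorticoids also induce.

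Promoters are shown for 4 members: Igfbp1 and Ddit4, whose signals differed most between the diets, and Irs2 and Pck1, whose windows matched sequences known from control by insulin or cyclic AMP. Each window runs from 250 bases before to 50 bases after the annotated start, 5′ to 3′ on the gene's strand, from RefSeq on GRCm38.p6. The windows are chr11:7197537-7197836 (+ strand) for Igfbp1, chr10:59951721-59952020 (- strand) for Ddit4, chr8:11008880-11009179 (- strand) for Irs2 and chr2:173152823-173153122 (+ strand) for Pck1. Capitals mark matches, on either strand, to CAAAACA or CAAAATA (core spellings of the insulin response element), GTAAACA (a core bound by forkhead factors such as FOXO1), AGAACA (a core of the glucocorticoid response element) and ACGTCA (a core of the cyclic AMP response element).
Igfbp1: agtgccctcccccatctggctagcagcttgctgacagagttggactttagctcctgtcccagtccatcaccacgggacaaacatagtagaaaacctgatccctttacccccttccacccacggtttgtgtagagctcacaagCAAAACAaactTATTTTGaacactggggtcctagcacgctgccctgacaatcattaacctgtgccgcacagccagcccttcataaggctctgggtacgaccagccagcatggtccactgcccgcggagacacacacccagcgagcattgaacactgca
Ddit4: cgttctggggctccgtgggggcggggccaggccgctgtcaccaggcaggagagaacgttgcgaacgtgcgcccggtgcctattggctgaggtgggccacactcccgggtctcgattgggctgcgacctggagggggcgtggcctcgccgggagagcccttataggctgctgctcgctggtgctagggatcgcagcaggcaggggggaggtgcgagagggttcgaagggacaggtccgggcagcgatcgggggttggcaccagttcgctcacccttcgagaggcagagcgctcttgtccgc
Irs2: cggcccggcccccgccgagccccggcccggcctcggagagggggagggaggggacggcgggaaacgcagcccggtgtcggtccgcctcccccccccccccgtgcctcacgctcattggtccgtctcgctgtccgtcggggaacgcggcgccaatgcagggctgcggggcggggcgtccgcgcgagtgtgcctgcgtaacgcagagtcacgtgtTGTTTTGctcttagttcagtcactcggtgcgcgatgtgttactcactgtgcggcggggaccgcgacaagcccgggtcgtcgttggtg
Pck1: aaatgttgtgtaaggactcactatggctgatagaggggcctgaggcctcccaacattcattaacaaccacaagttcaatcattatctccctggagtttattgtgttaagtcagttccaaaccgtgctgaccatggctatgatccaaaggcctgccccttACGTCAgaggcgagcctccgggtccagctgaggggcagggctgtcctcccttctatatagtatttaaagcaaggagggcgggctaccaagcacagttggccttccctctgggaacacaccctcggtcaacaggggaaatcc

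In the Igfbp1 window CAAAACA lay 108 to 102 bases before the start, and CAAAATA was read on the other strand 97 to 91 bases before it, so that both matches face each other without overlap. The Irs2 window held CAAAACA on the other strand, 37 to 31 bases before the start. The Pck1 window held ACGTCA 91 to 86 bases before the start, and the Ddit4 window matched none of these spellings. Of the 10 members, 9 were in the table, with 16 windows between them; Nr3c1 was not. CAAAACA was in 2 of the 16 windows and in 6.28% of all 32851 windows, and CAAAATA was in 1 and in 4.36%. AGAACA was in 4 windows, of Sgk1 and Tsc22d3, and in 19.0% of all. ACGTCA was in 2, of Pck1 and Ppargc1a, and in 7.51% of all, and GTAAACA was in 0 and in 3.65%. A match is a description of the letters, not a bound site.

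Among the members, signals of Igfbp1 and Ddit4 stood far above control on both hexane arrays, and no member probe set reached the threshold with the methanol fraction. Igfbp1 encodes a secreted protein that binds insulin-like growth factors and limits their access to receptors. Its probe set 1418918_at read 357.1 and 485.7 array units on control replicates 1 and 2, 3253.0 and 6814.2 on hexane replicates a and b, and 273.6 and 812.4 on methanol replicates a and b. Both hexane arrays lay above the other 4, and the methanol arrays fell on either side of both controls. Mean signals were 421 ± 90.9 in control, 5034 ± 2518 in hexane and 543 ± 381 in methanol (SD, n = 2 each).

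The log2 difference of Igfbp1 was 3.45 ± 0.49 (SE) for hexane minus control, 10.9-fold on the scale of signal plus 16, and 3.27 ± 0.49 for hexane minus methanol. For methanol minus control it was 0.18 ± 0.49, with 0.72 within scan batch 1 and -0.37 within batch 2. Hexane minus control was 2.96 with scan batch as a block and 2.70 with chip lot as a block. Leaving out control replicate 1 gave 3.23, leaving out control replicate 2 gave 3.66 and leaving out hexane replicate b gave 2.92, and each of these omissions ended the call. Replicates of 1 diet differed 2.1-fold in hexane and 2.97-fold in methanol, against 1.36-fold in control.

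Ddit4, also known as REDD1, restrains the growth kinase complex mTORC1 and is induced by glucocorticoids, low oxygen and other stresses. Its probe set 1428306_at read 142.2 and 179.0 array units in control, 627.1 and 2203.5 in hexane and 189.1 and 212.1 in methanol. Both hexane arrays lay above all others, and hexane replicate b lay far above replicate a; the methanol arrays were just above the controls. Mean signals were 161 ± 26.0, 1415 ± 1115 and 201 ± 16.3 array units (SD, n = 2 each).

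For Ddit4 the log2 difference was 2.77 ± 0.48 for hexane minus control, 6.8-fold on that scale, and 2.47 ± 0.48 for hexane minus methanol. Blocking on scan batch gave 2.65 and ended the call. Without hexane replicate b it was 1.87, and without replicate a 3.66, the only omission of an array under which Ddit4 kept the call. Methanol minus control was 0.30 ± 0.48, and -0.27 with chip lot as a block.

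**Figure D1:**
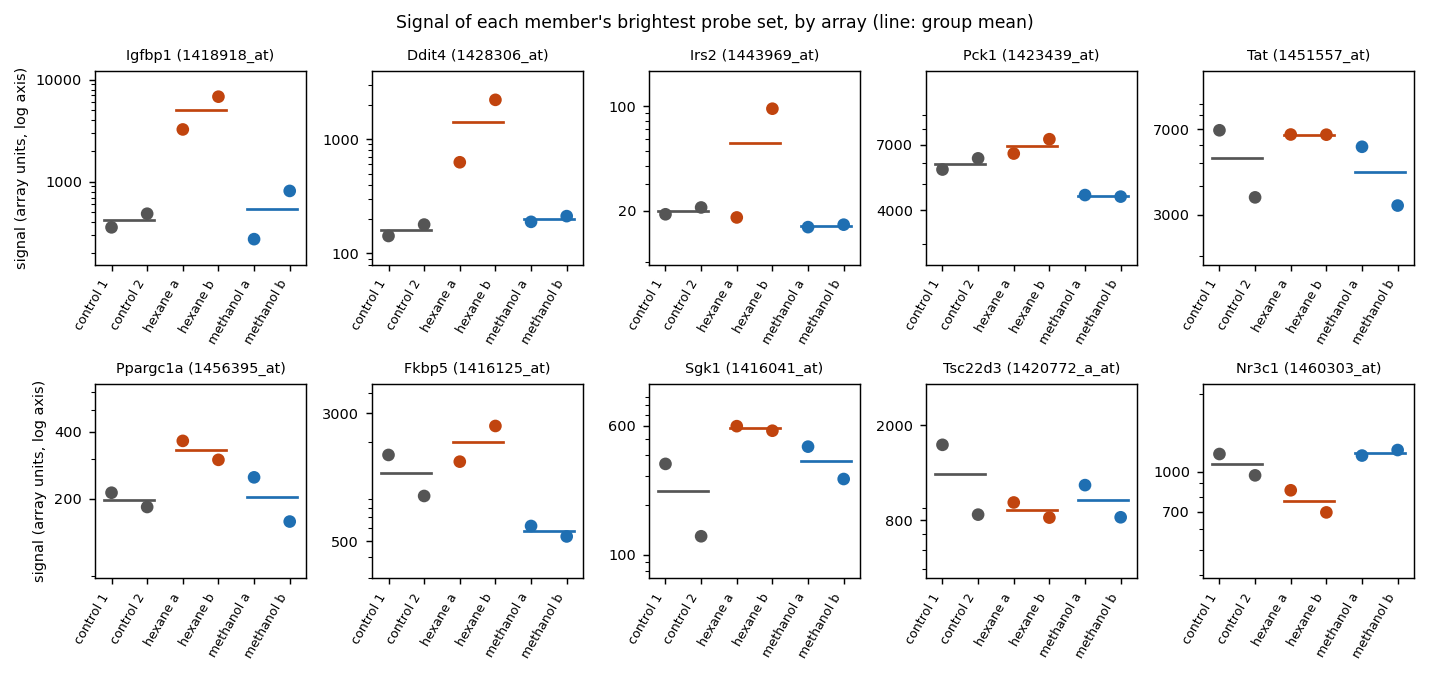
Signal of the brightest probe set of each of the 10 genes on each of the 6 arrays, in array units on a log axis whose range differs between panels; points are arrays and lines are group means of 2 arrays. Igfbp1 and Ddit4 are high on both hexane arrays, Fkbp5 and Pck1 are low on both methanol arrays, and Tat, Sgk1 and Tsc22d3 differ widely between the 2 control arrays.

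Irs2 carries the insulin signal from the receptor into the cell and, like Igfbp1, is switched on by FOXO factors in fasted liver. Its probe set 1443969_at read 18.9 and 21.0 array units in control, 18.0 and 96.5 in hexane and 15.5 and 16.1 in methanol. All 6 arrays were below their own 40th percentile, so it was not tested. Hexane replicate b stood apart from the other 5 arrays, which were near the added constant of 16, and hexane replicate a did not share its level.

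Pck1, Tat and Ppargc1a serve glucose production itself. Pck1 encodes the enzyme that turns oxaloacetate into phosphoenolpyruvate, a control point of gluconeogenesis. Its probe set 1423439_at read 5660.7 and 6230.8 array units in control, 6491.4 and 7341.6 in hexane and 4548.8 and 4488.6 in methanol. The 3 diets did not overlap: both hexane arrays lay above both controls, and both methanol arrays below. The log2 difference was 0.22 ± 0.14 for hexane minus control, -0.39 ± 0.14 for methanol minus control and 0.61 ± 0.14 for hexane minus methanol. The values within scan batch 1 were 0.15, -0.47 and 0.62, and within batch 2 methanol minus control was -0.31.

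The other Pck1 probe set, 1455209_at, read 52.2 and 97.7 array units in control, 107.9 and 135.6 in hexane and 56.3 and 54.1 in methanol. Only the hexane arrays were at or above their 40th percentile, so it entered the model through the group where it was high. Both hexane arrays lay above the other 4, and the methanol arrays lay between the controls. Its hexane minus methanol difference was 0.94 ± 0.45.

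Tat, tyrosine aminotransferase, breaks down tyrosine and is a classical glucocorticoid-induced enzyme of liver. Its probe set 1451557_at read 6913.1 and 3568.9 array units in control, 6630.3 and 6619.4 in hexane and 5876.0 and 3292.4 in methanol. The hexane arrays were nearly equal and lay between the controls, while the batch 2 array was the higher of each of the other pairs. Control replicate 1 exceeded replicate 2 by 0.95 on the log2 scale, and methanol replicate a exceeded b by 0.83. The hexane minus control difference of 0.41 ± 0.33 was 0.89 within scan batch 1 and -0.06 without control replicate 2, so its sign rested on that array.

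Ppargc1a encodes PGC-1alpha, a coactivator that works with FOXO1, HNF4A and the glucocorticoid receptor on gluconeogenic genes. Of its 5 probe sets, 4 were tested. Probe set 1437751_at read 196.6 and 186.7 array units in control, 283.2 and 305.4 in hexane and 161.2 and 171.9 in methanol. Here again hexane lay above and methanol below both controls, without overlap. Its log2 differences were 0.58 ± 0.21 for hexane minus control, -0.19 ± 0.21 for methanol minus control and 0.77 ± 0.21 between the fractions.

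On probe set 1456395_at Ppargc1a read 212.9 and 183.7 array units in control, 363.5 and 298.9 in hexane and 249.5 and 158.1 in methanol. The hexane arrays were again the highest, and the methanol arrays fell on either side of the controls. Hexane minus control was 0.69 ± 0.26 on this probe set and 0.77 ± 0.35 on 1434100_x_at, of a type that can match related transcripts. Probe set 1434099_at stood at 0.14 ± 0.37 with overlapping arrays and turned negative with scan batch (-0.16) or chip lot (-0.29) as a block. The dim 1460336_at read 56.8 and 71.1 in hexane against 76.1 and 72.5 in control. It lay below the 40th percentile of every array, and no direction is read from it.

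Fkbp5, Tsc22d3 and Sgk1 are target genes of the glucocorticoid receptor. Fkbp5 encodes a co-chaperone that lowers the receptor's affinity for hormone, which closes a feedback loop. Its probe set 1416125_at read 1675.1 and 943.9 array units in control, 1525.3 and 2511.7 in hexane and 620.5 and 536.0 in methanol. The hexane arrays overlapped with control, and both methanol arrays lay below the other 4. The log2 difference was 0.63 ± 0.32 for hexane minus control, -1.10 ± 0.32 for methanol minus control and 1.74 ± 0.32 between the fractions. Methanol minus control was -0.80 within scan batch 1 and -1.41 within batch 2.

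The dimmer Fkbp5 probe set, 1448231_at, read 123.0 and 166.4 array units in control, 246.9 and 340.6 in hexane and 162.4 and 92.5 in methanol. Hexane lay above control without overlap, and methanol overlapped with control, so the probe sets differed in which fraction departed from control. Both had hexane above methanol without overlap, by 1.14 ± 0.32 on this one.

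Sgk1, a kinase named for its induction by serum and glucocorticoids, read 353.5 and 129.1 array units in control, 597.6 and 560.9 in hexane and 449.4 and 286.4 in methanol. Both hexane arrays were the highest, and control replicate 2 was by far the lowest array. The hexane minus control difference was 1.36 ± 0.41, with 2.04 within scan batch 1 and 0.69 without control replicate 2. Here too the batch 2 array was the higher within control, by 1.35, and within methanol, by 0.62.

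Tsc22d3, or GILZ, is an anti-inflammatory leucine zipper protein that glucocorticoids induce in many tissues. Its probe set 1420772_a_at read 1654.6 and 843.3 array units in control, 948.4 and 819.4 in hexane and 1121.3 and 822.0 in methanol. All diets overlapped. Control replicate 1 was the highest array there, as it was on 1425281_a_at, with 734.4 and 277.3 in control against 509.6 and 453.8 in hexane. Hexane minus control was -0.42 ± 0.31, 0.08 ± 0.41 and, on 1425557_x_at, 0.12 ± 0.23. Without control replicate 1 the first of these became 0.06, so no direction can be given for Tsc22d3.

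Nr3c1 encodes the glucocorticoid receptor. Signals of its probe set 1460303_at were 1169.2 and 967.0 array units in control, 846.8 and 695.6 in hexane and 1153.2 and 1211.3 in methanol. Both hexane arrays were the lowest of the 6, and methanol overlapped with control. Hexane minus control was -0.46 ± 0.19 and hexane minus methanol -0.61 ± 0.19. The probe set 1421867_at read 644.9 and 1178.7 in control against 568.9 and 568.6 in hexane, which gave -0.60 ± 0.29. It was -0.18 without control replicate 2, the array that stood high. The third, 1421866_at, was below the 40th percentile of all 6 arrays, at 30.5 to 51.1 array units.

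**Figure D2:**
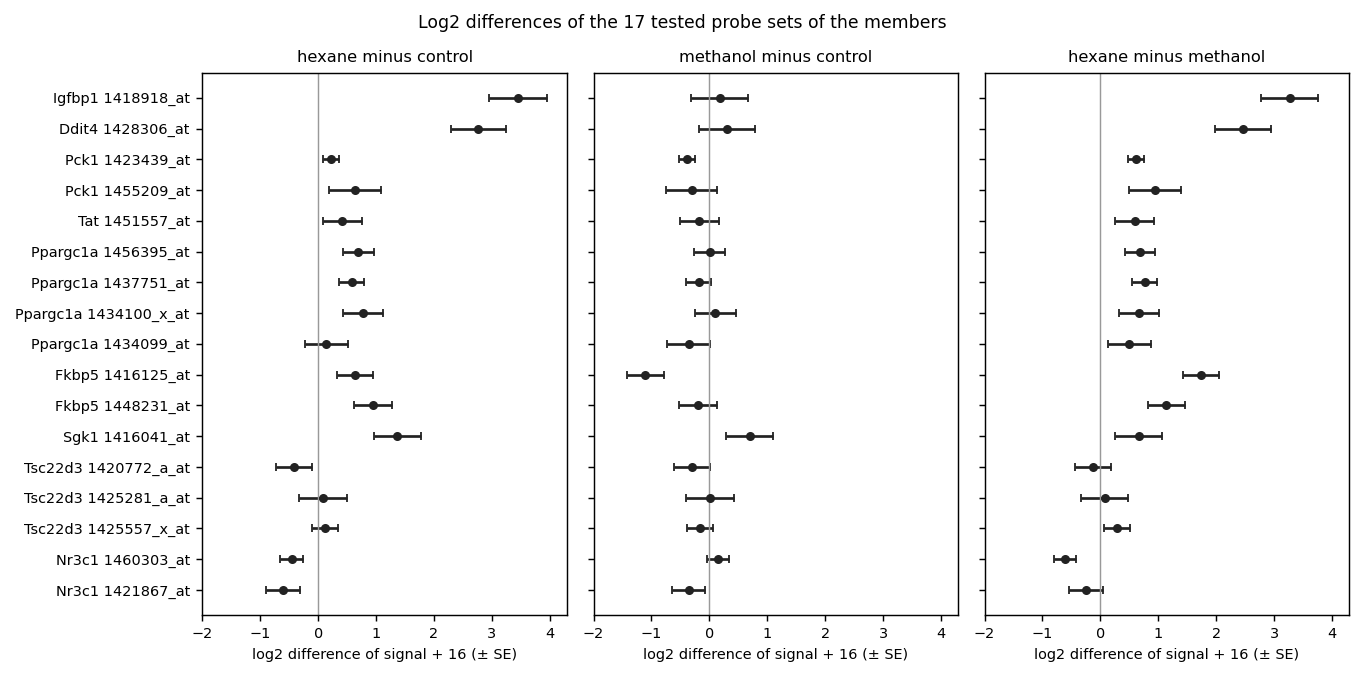
Log2 difference of signal plus 16 with its standard error from the fit over all 6 arrays, for the 17 tested probe sets in each of the 3 comparisons. Igfbp1 and Ddit4 stand apart at 3.45 and 2.77 for hexane minus control, and the largest difference for methanol minus control is that of Fkbp5 1416125_at at -1.10.

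Counted over the 17 tested probe sets, 2 passed an adjusted p of 0.05 for hexane against control (Igfbp1 and Ddit4), where 0.712% of all 14755 tested probe sets passed in either direction. The hexane and control signals of Igfbp1 and Ddit4 led to the set, so nothing is read from this count or from any other count or median over it that uses hexane or control arrays. For methanol against control 0 passed with limma, where 0.108% of all did, and 2 had an unadjusted p under 0.05 (Fkbp5 1416125_at and Pck1 1423439_at, both lower), where 6.95% of all did. Between the fractions 0 passed, where 0.0136% of all did, and 8 had an unadjusted p under 0.05, where 8.04% did. The 3 comparisons share arrays: both fractions are set against the same controls, and the hexane arrays serve in 2 comparisons.

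Both hexane arrays lay above both controls for 9 of the 17 probe sets, where 18.8% of all did, and below for 2, both of Nr3c1, where 22.1% did. Between the fractions, hexane lay above methanol without overlap for 10, where 25.4% of all did, and below for the 2 of Nr3c1, where 21.4% did. Methanol lay above both controls for 1, Ddit4, where 14.8% did, and below for 3, where 20.4% did. The median log2 difference over the 17 was 0.58 for hexane minus control, -0.17 for methanol minus control and 0.67 between the fractions, against -0.02, -0.04 and 0.02 over all tested probe sets. Without Igfbp1, Ddit4 and the Pck1 probe set that passed the filter only through its hexane arrays, 14 probe sets were left. Of these, 6 had hexane above both controls and 7 had hexane above methanol without overlap. An unadjusted p under 0.05 was found for 5 in hexane against control, where 12.4% of all did. Between the fractions it was found for 6, where 8.04% did. The medians of the 14 were 0.32 for hexane minus control, -0.18 for methanol minus control and 0.60 between the fractions. The other members were chosen with these results known as well, and the probe sets of a gene are not independent. Nothing is therefore read from these counts and medians either.

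**Figure D3:**
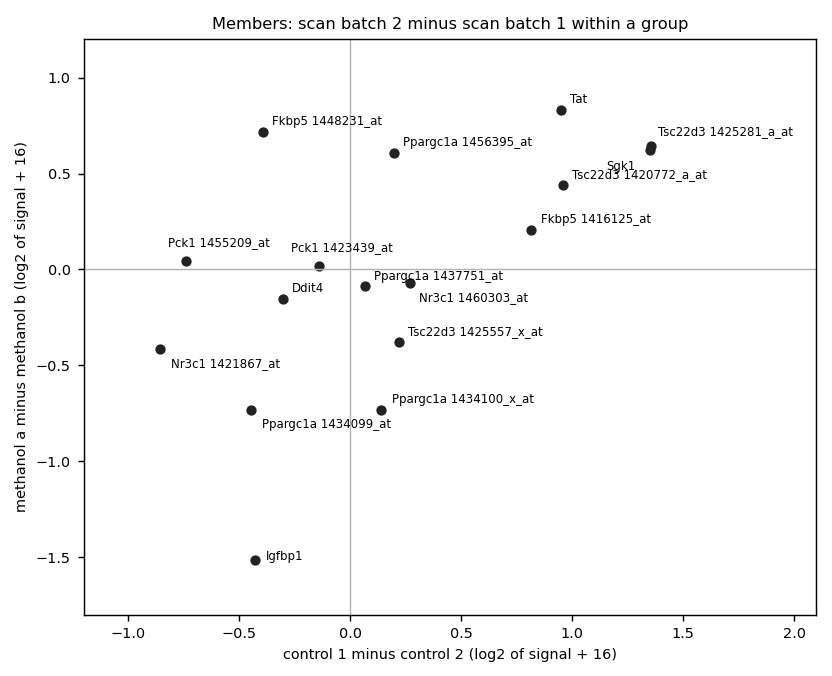
Difference between the array of scan batch 2 and that of batch 1 within control (horizontal axis) and within methanol (vertical axis), in log2 of signal plus 16, for the 17 tested probe sets. Tat, Sgk1 and the _a_at probe sets of Tsc22d3 are high in batch 2 in both diets, and Igfbp1 and Ddit4 are low in it in both.

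The batch 2 array was the higher in both control and methanol for 6 of 17 member probe sets (35.3%), near the 26.7% of all tested ones, so the count is no result about the members. The plot of batch differences shows these 6, which were those of Tat and Sgk1, 2 of Tsc22d3, Fkbp5 1416125_at and Ppargc1a 1456395_at. With scan batch as a block, Sgk1 (1.85) and Tat (0.86) passed for hexane against control beside Igfbp1, and Ddit4 (2.65) did not. Over all 14755 probe sets 118 passed in that fit. Both hexane arrays were in batch 1, where control replicate 2 was the control array. Without that array Sgk1 stood at 0.69 and Tat at -0.06, and nothing is read from these calls. Igfbp1 was lower in batch 2 by 0.43 within control and by 1.52 within methanol, and Ddit4 by 0.30 and 0.15. The part of batch, chip lot or RNA quality in these differences was not tested.

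Other genes were taken from 9 lists of liver pathways, written with earlier results of these arrays known; each gene is represented by its brightest tested probe set. Over all tested probe sets, an unadjusted p under 0.05 was found for 12.4% in hexane against control, 6.95% in methanol against control and 8.04% between the fractions. These shares are the background for the counts of each list, though they are over probe sets and the lists count genes. Of 20 glucocorticoid-induced genes 1 rose after the hexane fraction and 19 did not pass, where 0.738% of all genes passed in either direction. The one that rose was Mt1, a metallothionein that binds zinc and copper and is also induced by metals and inflammation. Its probe set, of a type shared by related transcripts, read 5210.2 and 2940.0 array units in control, 19885.1 and 11764.5 in hexane and 7499.1 and 7970.6 in methanol. Every fraction array lay above both controls, and hexane lay highest. The log2 difference was 1.96 ± 0.30 for hexane minus control (adjusted p = 0.034 with limma), a call that held without control replicate 1 and was lost without any of the other 5 arrays, at 1.55 to 2.34. Over the alternatives tried its adjusted p ran from 0.0143 to 0.17 with limma. For methanol minus control it was 0.98 ± 0.30 (adjusted p = 0.543).

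Cebpd, a transcription factor of the acute phase response, read 166.7 and 182.6 array units in control, 445.6 and 773.0 in hexane and 156.4 and 230.2 in methanol. It had hexane above all other arrays and missed the threshold, with 1.66 ± 0.30 (adjusted p = 0.0542). Errfi1, a feedback inhibitor of the EGF receptor, and Ccn2, a matrix-associated growth regulator, were higher in hexane than in methanol. The differences were 0.76 ± 0.13 (adjusted p = 0.2) and 1.17 ± 0.22 (adjusted p = 0.225). Errfi1 stood at 0.15 ± 0.13 for hexane minus control and at -0.61 ± 0.13 for methanol minus control. Ccn2 stood at 0.80 ± 0.22 and -0.37 ± 0.22. The list's median was 0.25 for hexane minus control, with 16 of 20 above 0, against -0.03 over all 9209 genes tested. An unadjusted p under 0.05 was found for 10 of the 20, and of these only Dusp1 was lower in hexane. It stood at -0.96 ± 0.20 (adjusted p = 0.0879 with limma). Its signals were 296.5 and 317.0 array units in hexane against 555.3 and 670.8 in control. Between the fractions 0 passed and 9 had an unadjusted p under 0.05, with a median of 0.53 and 18 above 0, against 0.02 over all genes. For methanol minus control 0 passed and 5 had an unadjusted p under 0.05, with a median of -0.10 against -0.05.

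**Figure D4:**
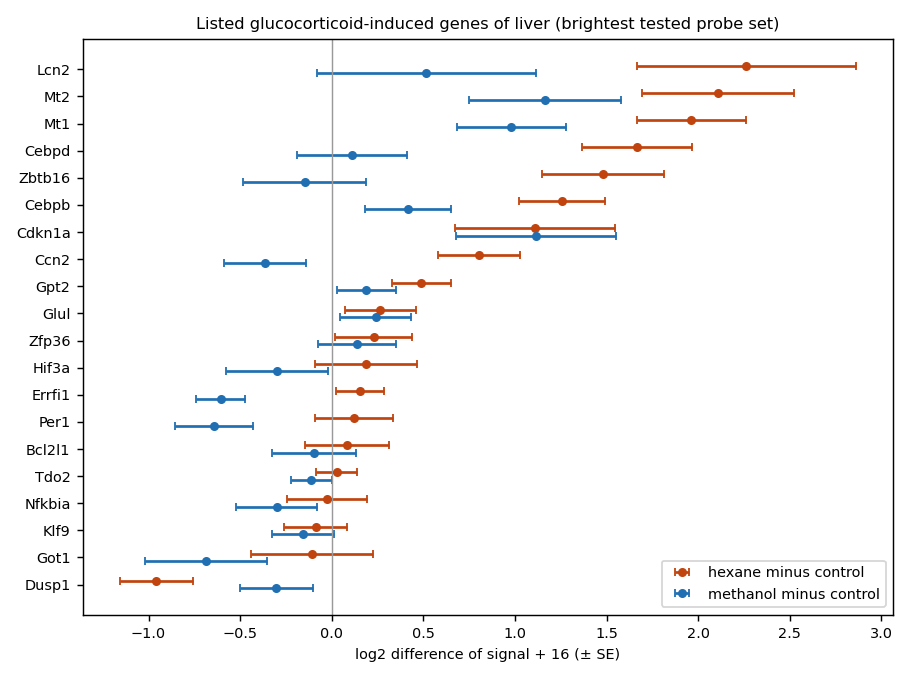
Log2 difference of signal plus 16 with its standard error for the 20 listed glucocorticoid-induced genes, hexane minus control in red and methanol minus control in blue. Mt1 at 1.96 is the gene that passed for hexane, and Dusp1 is the lowest for hexane.

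Of 12 listed genes around the receptor, the 6 tested did not pass in any comparison, with 1, 1 and 0 at an unadjusted p under 0.05 for hexane against control, methanol against control and hexane against methanol. Their median was -0.29 for hexane minus control and -0.32 for methanol minus control. Fkbp4, the co-chaperone that competes with the Fkbp5 protein on the receptor complex, stood at -0.43 ± 0.18 (adjusted p = 0.384) and -0.38 ± 0.18 (adjusted p = 0.747). Hsd11b1, which regenerates active glucocorticoid inside the cell, stood at -0.34 ± 0.13 for methanol minus control (adjusted p = 0.673).

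Among 23 listed targets of fasting and FOXO factors 21 were tested and 0 passed in any comparison, while 8, 2 and 6 had an unadjusted p under 0.05 in the same order of comparisons, against the 12.4%, 6.95% and 8.04% of all probe sets. The median for hexane minus control was -0.07, with 7 above 0 and 14 below. Cited2, a coregulator that binds CBP and p300, stood at -1.12 ± 0.20 (adjusted p = 0.0541) and, for hexane minus methanol, at -1.28 ± 0.20 (adjusted p = 0.192). Its signals were 737.8 and 635.7 array units in control, 343.2 and 274.6 in hexane and 758.5 and 783.0 in methanol. Fbp1, the gluconeogenic fructose bisphosphatase, stood at -0.41 ± 0.11 for methanol minus control (adjusted p = 0.512) and at -0.28 ± 0.11 for hexane minus control (adjusted p = 0.348), with all fraction arrays below both controls. G6pc, which releases free glucose, and Pcx, which makes oxaloacetate from pyruvate, were added after their values were seen, since they act with Pck1. They stood at -0.81 ± 0.29 (adjusted p = 0.283) and -0.38 ± 0.16 (adjusted p = 0.386) for hexane minus control. Pdk4, which holds pyruvate back from oxidation during fasting, stood higher in both fractions than in control. Methanol minus control was 1.61 ± 0.43 (adjusted p = 0.512). Its arrays read 34.4 and 42.9 in control, 83.4 and 178.7 in hexane and 133.5 and 167.8 in methanol. Both controls and hexane replicate a lay below their 40th percentiles (93.5, 116.3 and 100.9). Pdk4 thus entered the model only through fraction arrays, where it was high. Lpin1, a phosphatidate phosphatase and partner of PGC-1alpha, was higher in hexane than in methanol by 1.32 ± 0.35 (adjusted p = 0.43).

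Genes that insulin induces did not pass either, with 10 of 11 tested and 1, 2 and 1 at an unadjusted p under 0.05. Srebf1, whose product drives fatty acid synthesis, stood at -0.91 ± 0.24 for hexane minus control (adjusted p = 0.159), and the median was -0.04. Of 15 listed genes of insulin signalling and FOXO 13 were tested and 0 passed, with 2, 1 and 1 at an unadjusted p under 0.05. Irs1, the partner of Irs2, stood at -0.71 ± 0.22 for hexane minus control (adjusted p = 0.222), and Pdpk1, the kinase upstream of AKT, at -0.56 ± 0.20 (adjusted p = 0.298). Their median was -0.02.

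Igfbp1 belongs to a family of binding proteins. Of 9 listed genes for IGFs and the other binding proteins 8 were tested and 0 passed, with 3, 1 and 0 at an unadjusted p under 0.05, and the median for hexane minus control was -0.33. Igfals, which keeps IGFs in a large complex in blood, stood at -0.99 ± 0.25 (adjusted p = 0.142) and Igfbp4 at -0.42 ± 0.13 (adjusted p = 0.226). Around Ddit4, 14 of 16 listed genes of mTORC1 and of stress signals were tested and 0 passed, with 5, 1 and 2 at an unadjusted p under 0.05. Asns, asparagine synthetase and a target of the stress factor ATF4, stood at 1.08 ± 0.29 for hexane minus control (adjusted p = 0.163), and Vegfa, a target of low oxygen, at -0.64 ± 0.18 (adjusted p = 0.171).

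None of 11 partners and targets of PGC-1alpha passed with limma, with 0, 0 and 1 at an unadjusted p under 0.05 and a median of -0.07 for hexane minus control. Ppara, a nuclear receptor of fatty acid oxidation, stood at -1.37 ± 0.43 between the fractions (adjusted p = 0.498). Liver genes with a daily rhythm bear on fasting and glucocorticoid genes, which follow the clock too, and of 15 listed 13 were tested and 0 passed, with 3, 3 and 3 at an unadjusted p under 0.05. Their median was -0.48 for hexane minus control, -0.20 for methanol minus control and -0.32 between the fractions. The clock-controlled factors Tef and Dbp stood at -0.66 ± 0.17 (adjusted p = 0.15) and -0.54 ± 0.18 (adjusted p = 0.256) for hexane minus control. For methanol minus control Nr1d1, the clock repressor REV-ERB alpha, stood at 0.58 ± 0.19 (adjusted p = 0.602), with both methanol arrays the highest of the 6. Per1, a clock gene that glucocorticoids also induce, stood the other way at -0.64 ± 0.21 (adjusted p = 0.606). The part of the hour of collection in the members' differences was not tested.

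By their pattern over the 6 arrays, the genes most like Igfbp1 were sought among 2285 that spanned at least 1 on the log2 scale. The highest Pearson r, as a description over 6 arrays of 3 diets, were those of Iah1 (0.996), Cebpd (0.992), Rpl14 (0.986), Sult2a2 (0.98) and Mcl1 (0.97). Sult2a2, a sulfotransferase of hydroxysteroids, read 28.3 and 46.7 array units in control, 647.6 and 8134.7 in hexane and 10 and 161.8 in methanol. Like Igfbp1, it was higher on hexane replicate b than on a and on methanol replicate b than on a. Since Sult2a2 was chosen by its r with Igfbp1, nothing is read from this shared order. Both controls and methanol replicate a lay below their 40th percentiles (93.5, 116.3 and 92.5). The lowest r were those of Gas1 (-0.997), an inhibitor of cell growth that read 894.4 and 742.3 in control, 287.3 and 155.7 in hexane and 970.2 and 570.4 in methanol, and Adam11 (-0.991). Among the members, r with Igfbp1 was 0.952 for Ddit4 and 0.311 for Tat. Probe sets of a gene differed in it. For Ppargc1a r was 0.931 on 1437751_at and 0.914, 0.636, 0.626 and -0.159 on its other probe sets. For Nr3c1 r was -0.885 on 1460303_at, -0.396 on 1421867_at and -0.36 on the dim 1421866_at.

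Markers of the cell types in the tissue were read beside these results. The 7 hepatocyte markers measured, of 9 listed, summed to 143125 and 157616 array units in control, 135857 and 120977 in hexane and 119938 and 115775 in methanol. The 7 endothelial markers summed to 7475 and 9511 in control, 6136 and 5697 in hexane and 6893 and 7472 in methanol, in the order of the replicates. Sums of 11 Kupffer cell and macrophage markers were 10173 and 11284 in control, 9056 and 9529 in hexane and 9856 and 10755 in methanol. Sums of 8 stellate cell markers were 5009 and 3685 in control, 3400 and 3033 in hexane and 4547 and 3594 in methanol. In the endothelial, Kupffer cell and stellate cell sums both hexane arrays were the lowest of the 6. Bright markers weigh most in a sum, and single markers did not all follow it. Hexane minus control was above 0 for 2 of 7 endothelial, 2 of 11 Kupffer cell and 2 of 7 stellate cell markers tested, and below 0 for the others. The Kupffer cell marker Marco was highest on both hexane arrays. In the hepatocyte sums all fraction arrays lay below both controls. None of the markers tested passed in any comparison with limma. For hexane against control 2 hepatocyte, 2 endothelial, 2 Kupffer cell and 1 stellate cell markers had an unadjusted p under 0.05. So did 1 of 3 acinar markers and the 1 adipocyte marker tested, where 12.4% of all tested probe sets did. For methanol against control 5 of 7 hepatocyte markers and no other marker did, where 6.95% of all did. Of 5 cholangiocyte markers 4 were too dim to be tested, as were 3 of 5 lymphocyte markers and Adipoq and Lep among 3 adipocyte markers. Transcripts of pancreatic acinar cells were present on every array: Cela1, Ctrb1 and Cpa1, 3 of 6 listed, summed to 17386 and 11370 in control, 8209 and 22398 in hexane and 23738 and 12600 in methanol. That sum was lowest on hexane replicate a and highest on methanol replicate a. The part of any of these cell types in the members' differences was not tested.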

How the data were processed

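Liver RNA of 6 samples was read from the table of the whole series. The authors deposited 1 linear signal intensity per probe set and array; the summary software (not given in the sources used here) left no detection calls in it. Array means, trimmed by 2% at each end, were equal within 0.0059%, so the deposited intensity values were used without further scaling. The deposited experiment files gave scan batch and chip lot. Of 22690 probe sets 64 controls were left out; 20393 had 1 annotated symbol, 691 several and 1606 none, and 20364 matched the gene table by Entrez ID with 0 changed symbols. Groups came from the sample titles.

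Values were log2 of signal plus 16, which understates differences of dim probe sets. Probe sets at or above the 40th percentile on at least 2 of 6 arrays (14755) were fitted over all 6 arrays with limma 3.58.1 in R 4.3.3 (lmFit, eBayes with a variance trend; degrees of freedom were 3 residual and 5.43 prior). Two-sided p-values were adjusted after Benjamini and Hochberg over these 14755, with a threshold of 0.05. The fit was run on simulated data whose planted differences were larger than most reported here, so that run does not cover the smaller ones. A p-value here measures only how these samples spread, which may be technical.

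The members and all gene lists were chosen with earlier results of these data known. Named were all members, list genes that passed or otherwise up to 2 per list and comparison with the smallest p (a selection is printed), and the 5 genes most and 2 least like Igfbp1. Dusp1, G6pc and Pcx were named outside this rule, after their values were seen. Other normalizations, pseudocounts, filters and fits, blocks and left-out arrays were tried as alternatives. Promoters came from a RefSeq table on GRCm38.p6. Tables and figures used Python 3.11.15, pandas 2.3.3 and matplotlib 3.10.9.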

Additional observations from a re-analysis of the deposited data

Results flagged for a closer look

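For Pck1 (1423439_at) and Ppargc1a (1437751_at) both hexane arrays lay above both controls and both methanol arrays below them, so the fractions stood on opposite sides of control. The hexane minus methanol log2 difference was 0.61 for Pck1 and 0.77 for Ppargc1a, with standard errors of 0.14 and 0.21 in the fit over all arrays. Neither passed an adjusted p of 0.05 there. Both genes were chosen with these values known, so the difference is a description. Over all tested probe sets, 335 of 14755 (2.27%) had the fractions on opposite sides of both controls, 172 of them with hexane above and methanol below. The other tested Pck1 probe set and the other 3 of Ppargc1a did not show this separation.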

How the results depend on the processing

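Hexane minus control kept its sign for 12 of 17 member probe sets in every alternative, hexane minus methanol for 15 and methanol minus control for 5. For hexane against control, Igfbp1 passed in 11 of 16 alternatives (log2 difference 2.70 to 3.98) and Ddit4 in 2 (1.87 to 3.66). The 105 probe sets called became 48 with median centring, 27 with no filter, 12 without a variance trend, 39 with only the groups compared and 14 to 149 when 1 array was left out, 14 without hexane replicate b and 149 without control replicate 1. The 2 members called became 1 with quantile normalization, median centring, a pseudocount of 1 or 64 or only the groups compared, 0 with no filter or no trend, and 0 to 2 with an array omitted. Blocking on scan batch called 3 (Igfbp1, Sgk1 and Tat). Chip lot as a block called 2, but these were Igfbp1 and Sgk1, without Ddit4.

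For methanol against control, 16 became 10 with no filter, 2 without a trend, 9 with only the groups compared, 10 with chip lot as a block and 3 to 28 with an array left out. Between the fractions, 2 became 0 with quantile normalization, median centring, a pseudocount of 1, no filter, no trend or scan batch as a block, 16 with chip lot as a block and 0 to 11 with an array left out; the 0 members called became 2 with chip lot as a block (Igfbp1 and Fkbp5) and 0 to 1 with an array left out. The cause of these changes was not tested. With the letters a and b as a replicate block 75 probe sets and 3 members (Igfbp1, Ddit4 and Fkbp5) were called between the fractions. The differences a minus b of hexane and methanol had r = 0.03 over probe sets, so the letters were not taken as pairs; the b arrays also share scan batch 1 and chip lot 3. Control replicate 1 minus 2 and methanol replicate a minus b, both batch 2 minus 1, had r = 0.296.

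Mt1 lost its call with median centring, no filter, no trend or only the groups compared, and without any array but control replicate 1. Counts of list genes called moved in 14 of 441 alternatives. A count of 0 that stayed 0 was taken as unmoved, so this share does not measure how stable the calls were. Only the count of glucocorticoid-induced genes in hexane against control, which was 1, was above 0 in the main fit. It became 0 with median centring, no filter or no trend, and 2 with scan batch or chip lot as a block. An omitted array leaves its group with 1, assumed to vary like the others. Dim probe sets such as that of Irs2 allow no statement on their difference.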
